A study of Mus musculus with 16 samples.

Results

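The matrix proteases and their inhibitors were followed here as 10 genes picked by symbol: the metalloproteinases Mmp2, Mmp3, Mmp9, and Mmp14, the aggrecanase-type proteases Adamts1 and Adamts4, and the inhibitors Timp1, Timp2, Timp3, and Timp4. They are 10 of the 21923 genes of the deposited table, and all 10 passed the filter on low counts in every comparison. Their levels come from poly(A) RNA of the gastrocnemius (calf muscle) of 16 mice, 4 per group and 1 library each, collected on day 30. The NOR mice were normal controls without a tumor that received PBS, and the CAC mice carried subcutaneous tumors and received PBS. The AM mice carried the same tumors and received amiloride, a sodium channel and exchanger blocker, daily at 2 mg/kg from day 9. The KD mice carried tumors grown from cells in which shRNAs had lowered Rab27a and Rab27b, genes of vesicle release, and likewise received PBS from day 9. The labels make replicates 1 and 2 of each group C57BL/6, which hosted the lung carcinoma line LLC, and make replicates 3 and 4 BALB/c, which hosted the colon carcinoma line CT26, so strain and tumor line change together. The methods give an age of 6 to 8 weeks and male mice, while the labels name BALB/c mice of either sex. The knock-down was in the tumor cells, so the muscle RNA holds no check of it.

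Metalloproteinases are zinc enzymes that are made as inactive proenzymes and cut collagens, laminins, and proteoglycans of the matrix around muscle fibres. The TIMPs bind the active site of these enzymes and block them. Mmp14, an enzyme anchored in the membrane, together with Timp2 activates the Mmp2 proenzyme, so that Timp2 is both an inhibitor and a cofactor, and in muscle the matrix is renewed mainly by resident fibroblasts while neutrophils bring stores of Mmp9 and Mmp8.

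Libraries held 35913190 to 61032708 counts, and the summed level of 5 muscle fibre markers, led by Acta1, was 50151 to 163328 CPM (counts scaled to a common library size) in every library. Several libraries stood apart. Lymphocyte markers (7 genes) summed to 0.372 to 2.56 CPM in 5 libraries (NOR replicate 1, CAC replicates 1 and 4, KD replicates 2 and 3) and to 28.7 to 347 CPM in the other 11. KD replicate 3 had 0 counts over 4 Y-linked genes, against 4558 to 8438 in each other library. AM replicate 1 carried the liver transcripts Plg (36.3 CPM), Pzp (108 CPM), and Serpinf2 (14.7 CPM), each under 1 CPM in the other libraries. The labelled strain moved 0 of 15220 genes across the 16 libraries (edgeR quasi-likelihood test with Benjamini-Hochberg adjustment; 248 genes had an unadjusted p under 0.05, and no other tool was run). The strain labels may therefore not match the libraries, which was not tested, and every value below that uses strain rests on the labels as given.

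On the GRCm38 build (GENCODE M21) the 10 genes lie on 10 chromosomes, and 3 of the 4 TIMP genes lie inside a synapsin gene on the opposite strand. Timp1 (chrX:20870166-20874735) lies within Syn1, Timp3 (chr10:86300372-86349506) within Syn3, and Timp4 (chr6:115241892-115252205) within Syn2, whereas Timp2 (chr11:118301069-118355740) holds Cep295nl. Timp3 shares 1733 exonic bases with Syn3 and Timp4 shares 90 with Syn2, both on the opposite strand. Whether reads were counted by strand is not given in the sources used here, so reads from these stretches cannot be told apart. The 250 bases before the start of 7 of the 10 genes were at hand from RefSeq (GRCm38.p6), and 3 windows are shown: those of Timp2, which was lower in CAC, of Timp4, which was higher in CAC, and of Mmp3, a low gene whose level ran from 0.67 to 17.2 CPM between mice. Capitals mark TGANTCA (the AP-1 element), TGTTTAC (FoxO), TTCNNNGAA (STAT), and GGGCGG (Sp1) on either strand, and TATAAA (the TATA box) on the strand of the gene. No marked stretch overlaps another in these 3 windows.
Timp2: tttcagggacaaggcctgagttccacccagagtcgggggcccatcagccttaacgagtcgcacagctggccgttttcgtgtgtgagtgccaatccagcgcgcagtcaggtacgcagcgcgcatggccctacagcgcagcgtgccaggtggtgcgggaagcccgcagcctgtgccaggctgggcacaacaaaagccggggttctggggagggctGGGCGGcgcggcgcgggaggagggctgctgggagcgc
Timp4: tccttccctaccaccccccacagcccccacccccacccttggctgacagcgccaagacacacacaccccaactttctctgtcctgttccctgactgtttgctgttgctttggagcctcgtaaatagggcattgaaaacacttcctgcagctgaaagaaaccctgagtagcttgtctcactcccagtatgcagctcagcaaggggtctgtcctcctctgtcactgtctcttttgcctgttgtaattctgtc
Mmp3: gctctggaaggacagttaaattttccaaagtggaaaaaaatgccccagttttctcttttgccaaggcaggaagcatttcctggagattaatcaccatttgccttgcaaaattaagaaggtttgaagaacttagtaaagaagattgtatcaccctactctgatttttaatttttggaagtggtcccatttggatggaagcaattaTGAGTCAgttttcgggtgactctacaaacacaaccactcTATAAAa
They cover chr11:118355412-118355661 on the minus strand, chr6:115252206-115252455 on the minus strand, and chr9:7445572-7445821 on the plus strand. RefSeq places the start of Timp2 downstream of the GENCODE start, so that its window lies inside the GENCODE gene, whereas the other 2 windows end at the GENCODE start. Mmp3 held TGAGTCA at 46 to 40 bases before its start and TATAAA at 7 to 2 bases before it. The Timp2 window, with 68.0% G and C, held a lone GGGCGG, and the Timp4 window, with 53.6% G and C, held none of the 5 motifs. Of the 7 windows, 1 held TGANTCA, which 6.75% of all 32851 promoter windows hold, and 2 held TATAAA (Mmp3 and Adamts1; 7.59% of all windows). GGGCGG stood in 5 of the 7 (32.7% of all windows), and none held TGTTTAC (3.17%) or TTCNNNGAA (7.02%). These matches describe letters and say nothing about binding.

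Per length of transcript (FPKM, averaged over 16 mice), the inhibitors Timp3 and Timp2 led at 139.6 (range 86.4 to 200) and 105.9 (55.5 to 159), followed by Mmp2 at 71.9 (21.1 to 115), and neighbours in this order overlapped. Timp4 (31.4), Adamts1 (26.5), and Mmp14 (25.7) formed a middle group whose ranges overlapped. Mmp9 (8.47), Timp1 (3.35), Mmp3 (3.34), and Adamts4 (1.15) were low, with ranges that also overlapped each other. The counts behind the lowest values were 15 for Adamts4 in NOR replicate 4 and 36 for Mmp3 in KD replicate 3.

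The comparison of CAC with NOR asks what tumor burden did to these genes in muscle. The inhibitor Timp2 and the gelatinase Mmp2 were lower in CAC, while the gelatinase Mmp9 and the inhibitor Timp4 were higher. A gene was called when its adjusted p (false discovery rate, FDR) was at most 0.05 and its fold change at least 1.5 or at most 0.667. By this rule 4 of the 10 genes were called, 2 in each direction, beside 9.45% of the 14666 genes tested (4.32% higher and 5.13% lower). In 4 of the 10 (Timp2, Mmp2, Mmp9, and Timp1) the groups did not overlap, beside 23.3% of all genes (12.5% higher and 10.8% lower), and 5 of the 10 had an unadjusted p under 0.05, beside 29.1%. The median log2 fold change was 0.70 over the 10 genes and 0.01 over all genes.

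**Figure D1:**
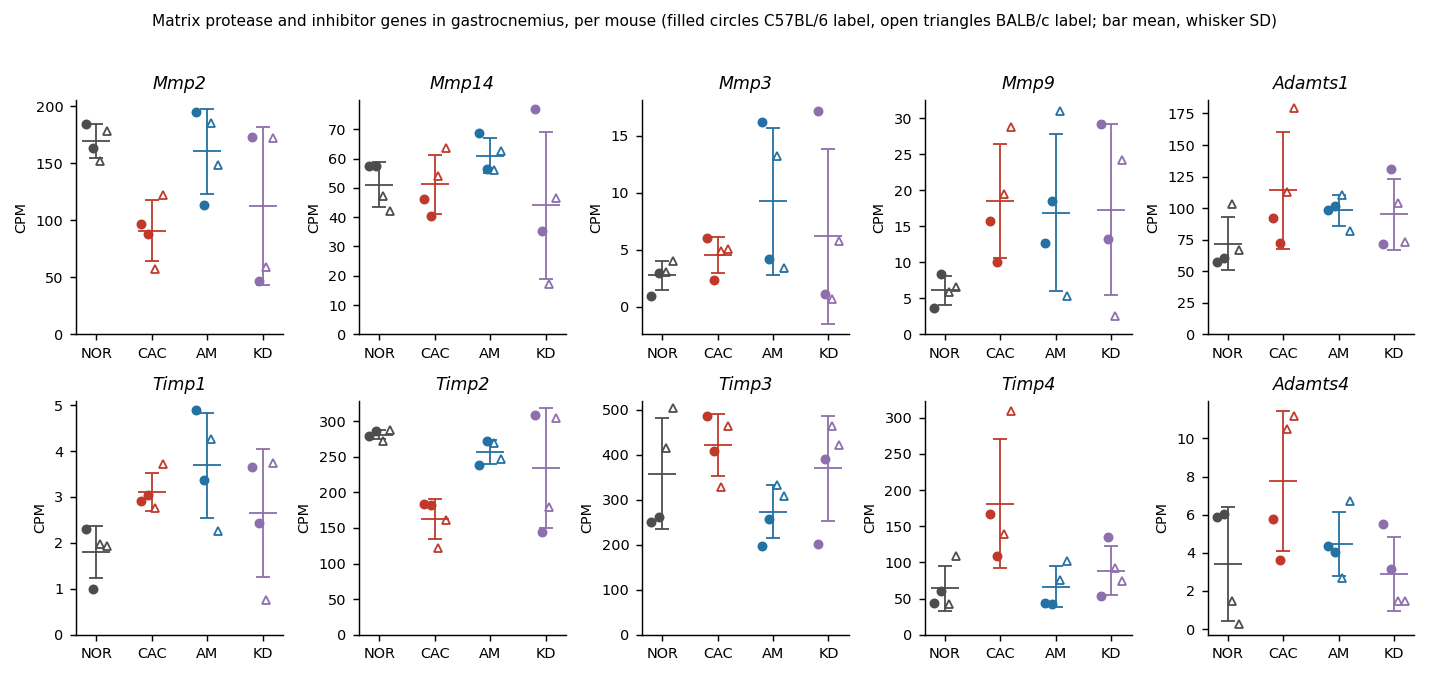
CPM of each gene (vertical axes, linear) in each mouse of the 4 groups, with filled circles for the C57BL/6 label and open triangles for the BALB/c label; the horizontal bar is the mean of 4 mice and the whisker its SD. Timp2 is 272 to 287 CPM in NOR and 122 to 183 CPM in CAC, and the KD points of Mmp2 and Timp2 split into a high and a low pair.

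Among the metalloproteinases, Mmp2, a gelatinase made by fibroblasts, measured 185, 164, 152, and 178 CPM in NOR replicates 1 to 4 and 96.5, 88.3, 57.4, and 122 CPM in CAC. Every CAC mouse was below every NOR mouse, with CAC replicate 3 lowest. The fitted log2 fold change was -0.91 (SE 0.20, FDR 0.0229 by edgeR), with -0.91 in the C57BL/6-labelled mice alone and -0.86 in the BALB/c-labelled mice alone. Mmp9, the gelatinase of leukocytes, measured 3.60, 8.34, 5.83, and 6.60 CPM in NOR and 15.7, 10.1, 19.4, and 28.8 CPM in CAC. The groups did not overlap and CAC replicate 4 was highest. Mmp9 rose by a log2 fold change of 1.61 (SE 0.35, FDR 0.0205 by edgeR), with 1.11 and 1.98 in the C57BL/6-labelled and the BALB/c-labelled mice.

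Mmp14, which activates Mmp2, averaged 51.0 ± 7.66 CPM in NOR and 51.2 ± 10.1 CPM in CAC (SD, n = 4 each). Its log2 fold change was 0.00 (SE 0.17, FDR 0.999 by edgeR), but the labelled strains went opposite ways. In the C57BL/6-labelled mice it measured 57.4 and 57.4 CPM in NOR and 46.2 and 40.5 CPM in CAC. In the BALB/c-labelled mice it measured 47.3 and 42.0 CPM in NOR and 54.1 and 63.7 CPM in CAC. The interaction of strain with condition had a log2 value of 0.88 (SE 0.18) and an unadjusted p of 0.00246, and did not pass the adjustment (FDR 0.561 by edgeR). Mmp3, stromelysin-1, was low, at 0.984 to 4.00 CPM in NOR and 2.33 to 6.05 CPM in CAC, and overlapped (log2 fold change 0.74, SE 0.43, FDR 0.296 by edgeR).

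Of the inhibitors, Timp2 measured 280, 285, 272, and 287 CPM in NOR and 183, 183, 122, and 161 CPM in CAC. All 4 CAC mice lay below all 4 NOR mice, among which Timp2 varied little. Timp2 fell by 0.80 on the log2 scale (SE 0.13, FDR 0.00801 by edgeR), that is to 0.576 of its NOR level, with -0.62 in the C57BL/6-labelled and -0.95 in the BALB/c-labelled mice. Timp4, the inhibitor best known from heart and muscle, measured 44.4, 61.1, 42.3, and 109 CPM in NOR and 167, 109, 139, and 310 CPM in CAC. NOR replicate 4, at 108.6 CPM, and CAC replicate 2, at 108.5 CPM, touched, and all other CAC mice were higher than all NOR mice. Timp4 rose 2.83-fold (log2 1.5, SE 0.40, FDR 0.0401 by edgeR), with 1.39 and 1.59 on the log2 scale in the C57BL/6-labelled and BALB/c-labelled mice. Its host gene Syn2 rose too, from 0.835 to 2.53 CPM in NOR to 3.49 to 8.44 CPM in CAC (log2 1.60, FDR 0.0333 by edgeR), whereas Syn1 and Syn3 stayed under 1 CPM in all libraries. Syn2 shares 90 exonic bases with Timp4, and how many of its counts came from Timp4 reads was not tested.

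Timp1, an inhibitor that inflammatory signals induce, measured 2.30, 0.986, 1.98, and 1.92 CPM in NOR and 2.91, 3.04, 2.76, and 3.71 CPM in CAC. The groups did not overlap (two-sided exact permutation p = 0.0286, the smallest that 4 against 4 mice allow), but the FDR of 0.106 by edgeR for a log2 fold change of 0.78 (SE 0.28) missed the threshold. Timp3, an inhibitor that binds matrix sulfates and also blocks ADAMTS enzymes, measured 251, 262, 415, and 504 CPM in NOR and 485, 408, 329, and 464 CPM in CAC. NOR replicates 1 and 2 lay below each CAC mouse, NOR replicate 3 within the CAC range, and NOR replicate 4 above it (log2 fold change 0.24, SE 0.23, FDR 0.566 by edgeR).

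The proteoglycan-cutting enzymes overlapped between the groups. Adamts1 measured 57.6 to 103 CPM in NOR and 72.3 to 179 CPM in CAC (log2 fold change 0.67, SE 0.30, FDR 0.176 by edgeR). Adamts4 measured 5.88, 6.03, 1.47, and 0.258 CPM in NOR and 5.80, 3.63, 10.5, and 11.2 CPM in CAC. The BALB/c-labelled pair of NOR was thus the lowest and that of CAC the highest, with a log2 fold change of 1.18 (SE 0.82, FDR 0.390 by edgeR) and an interaction FDR of 0.728.

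**Figure D2:**
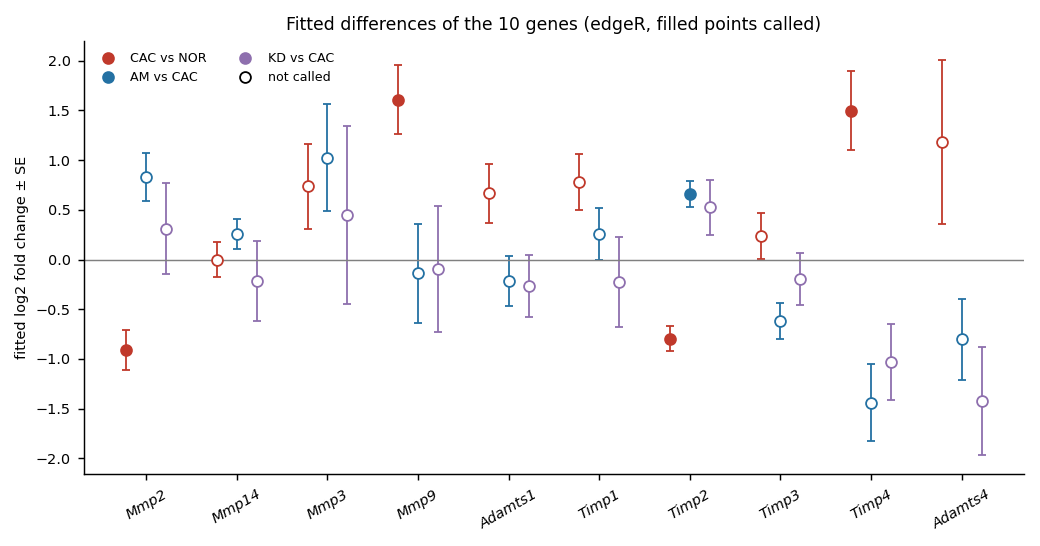
Fitted log2 fold change (vertical axis) with its SE for each of the 10 genes (horizontal axis) for CAC against NOR and for AM and KD against CAC; filled points passed the call rule and the 3 comparisons share the CAC mice. In CAC vs. NOR, Mmp2 and Timp2 are filled below 0 and Mmp9 and Timp4 above it, Timp2 alone is filled in AM vs. CAC, and no point is filled in KD vs. CAC.

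Of the 4 called genes, Timp2 alone kept its call when any mouse was left out, with an FDR of at most 0.0290 (edgeR). The call of Mmp2 was lost without any 1 of NOR replicates 1 to 4 or CAC replicates 1 and 2 (FDR 0.0501 to 0.0580), that of Timp4 without any of NOR replicates 1 to 3 or CAC replicates 1, 3, and 4 (0.0547 to 0.108), and that of Mmp9 without NOR replicate 3 (0.0647). Without the 5 libraries poor in lymphocyte markers, Mmp2 alone kept the call (log2 -1.15, FDR 0.0490), and Timp2 was at -0.86 (FDR 0.0669), Mmp9 at 1.14 (0.113), and Timp4 at 0.85 (0.254). With all 16 libraries in 1 fit Timp2 (FDR 0.0244) and Timp4 (0.0317) kept the call, and Mmp2 (0.133) and Mmp9 (0.112) lost it.

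Markers of several cell types differed between the same groups. The summed level of 7 fibroblast markers, led by Dcn, was 2455 to 3078 CPM in NOR and 855 to 1443 CPM in CAC, with 3 of the 7 called lower in CAC and none higher. The sum fell mainly through 2 collagens, Col1a1 (516 to 838 CPM in NOR, 38.4 to 67.3 CPM in CAC) and Col3a1 (677 to 1029 CPM in NOR, 89.5 to 169 CPM in CAC). Dcn itself measured 920 to 1005 CPM in NOR and 624 to 1049 CPM in CAC, and Pdgfra, a defining marker, 58.1 to 68.8 CPM and 34.2 to 68.6 CPM, and both overlapped. The other 3 markers did not overlap and were lower in CAC, Dpt at 38.5 to 58.8 CPM against 115 to 172 CPM in NOR, Pi16 at 15.4 to 52.9 against 60.1 to 89.6 CPM, and Lum at 14.98 to 54.4 against 60.8 to 95.2 CPM. Of 6 tendon markers, led by Thbs4, 3 were called lower in CAC and none higher (sums of 624 to 983 CPM in NOR and 182 to 442 CPM in CAC), and of 6 endothelial markers, led by Cdh5, 2 were called higher (sums of 943 to 1436 CPM in NOR and 1232 to 1679 CPM in CAC), although Cdh5 (342 to 525 CPM in NOR, 323 to 487 CPM in CAC) and Kdr (84.5 to 257 and 73.2 to 140 CPM) overlapped. The summed level of 10 neutrophil markers, led by S100a9, was 7.05 to 40.9 CPM in NOR and 113 to 247 CPM in CAC, with 3 of the 10 called higher, and the defining marker Ly6g stayed at 0 to 0.361 CPM in NOR and 0.157 to 1.83 CPM in CAC. The 5 erythroid markers, led by Hba-a1, were all called higher (1002 to 1374 CPM in NOR, 3646 to 8714 CPM in CAC). The 7 macrophage markers, led by Csf1r, summed to 105 to 274 CPM in NOR and 221 to 278 CPM in CAC, with 0 called by edgeR. The muscle fibre sum was 114302 to 163328 CPM in NOR and 50151 to 117475 CPM in CAC, lowest in CAC replicate 3, with 0 of 5 markers called by edgeR. The part of these markers in the levels of Mmp2, Timp2, and Mmp9 was not tested, and in bulk muscle fewer cells of a type and less RNA per cell cannot be told apart.

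**Figure D3:**
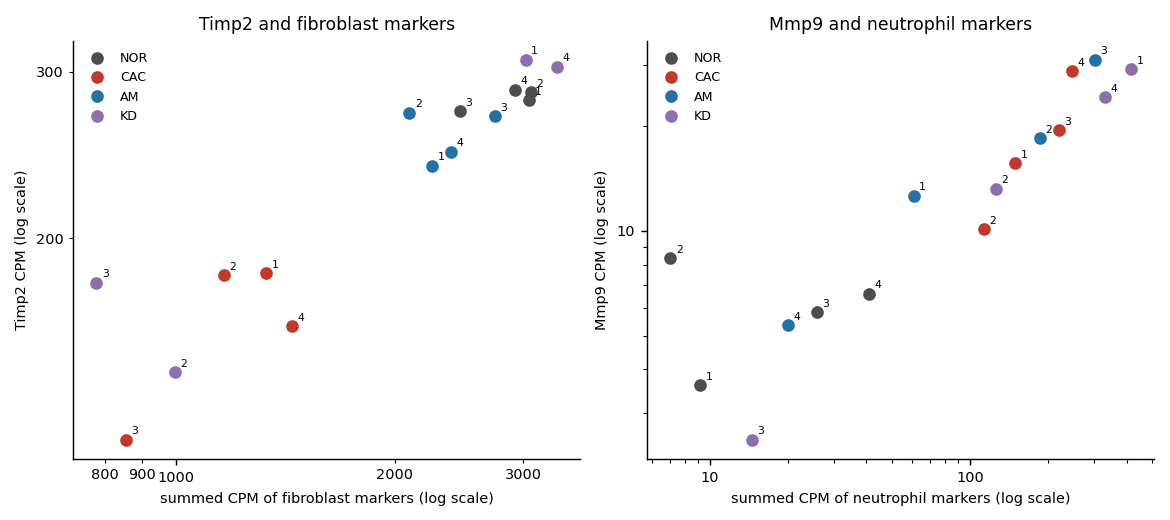
Left, Timp2 (CPM) against the summed CPM of 7 fibroblast markers, and right, Mmp9 (CPM) against the summed CPM of 10 neutrophil markers, both axes logarithmic; each point is 1 mouse with its replicate number and group colour. KD replicates 2 and 3 lie with the CAC mice on the left, and AM replicate 4 and KD replicate 3 lie with the NOR mice on the right.

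The comparison of AM with CAC asks what daily amiloride changed in tumor-bearing mice. Timp2 was higher in AM than in CAC and was the only called gene, 1 of 10 beside 3.66% of the 14674 genes tested (1.63% higher and 2.03% lower). It measured 239, 271, 269, and 247 CPM in AM, above each CAC mouse, and rose by 0.66 on the log2 scale (SE 0.13, FDR 0.0276 by edgeR; 0.49 in the C57BL/6-labelled and 0.84 in the BALB/c-labelled mice). Groups did not overlap in 2 of the 10 genes (Timp2 higher and Timp4 lower), beside 15.3% of all genes (6.05% higher and 9.27% lower), and 4 of the 10 had an unadjusted p under 0.05, beside 21.7%. The median log2 fold change was 0.06 over the 10 and 0.01 over all genes.

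Timp4 measured 44.5, 42.6, 76.0, and 102 CPM in AM, below each CAC mouse and within the range of NOR. Its log2 fold change of -1.44 (SE 0.39) had an FDR of 0.0725 by edgeR and did not pass. Mmp2 measured 195, 113, 185, and 149 CPM in AM and overlapped with CAC through AM replicate 2 (log2 0.83, SE 0.24, FDR 0.0901 by edgeR). Timp3 measured 197, 256, 332, and 309 CPM in AM, where AM replicate 3 overlapped with CAC (log2 -0.62, SE 0.18, FDR 0.0869 by edgeR). DESeq2 called Mmp2, Timp2, Timp3, and Timp4 in this comparison, and limma-voom called Timp2.

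Mmp9 measured 12.6, 18.5, 31.0, and 5.36 CPM in AM and ran from within the NOR range to above the CAC range, as did the summed neutrophil markers (20.04 to 303 CPM in AM). Its log2 fold change was -0.14 (SE 0.50, FDR 0.908 by edgeR). Mmp3 measured 16.2, 4.18, 13.3, and 3.43 CPM in AM, with replicates 1 and 3 above all NOR and CAC mice (log2 1.02, SE 0.54, FDR 0.320 by edgeR). The other 4 genes had log2 fold changes from -0.80 (Adamts4) to 0.26 (Mmp14) and FDRs of 0.304 and above. The fibroblast markers summed to 2095 to 2746 CPM in AM, above CAC, with 3 of 7 called higher. Dcn (716 to 1066 CPM in AM) and Pdgfra (56.9 to 67.0 CPM) overlapped with CAC, whereas Col1a1 (282 to 574 CPM) and Col3a1 (519 to 868 CPM) lay above each CAC mouse, as did Dpt (86.4 to 163 CPM), Pi16 (60.9 to 95.5 CPM), and Lum (54.7 to 92.6 CPM). The tendon markers summed to 501 to 777 CPM in AM, with 3 of 6 called higher than in CAC. Thbs4 (222 to 407 CPM in AM), Mkx (1.65 to 2.99 CPM), and Scx (7.04 to 9.07 CPM) overlapped with CAC. The part of the fibroblast or tendon markers in the Timp2 level was not tested. Timp2 lost its call with all 16 libraries in 1 fit (log2 0.66, edgeR FDR 0.0918) and without the 5 libraries poor in lymphocyte markers (0.74, FDR 0.130). The call of Timp2 held without CAC replicate 2 (FDR 0.0488) and was lost without any 1 of the other 7 mice, 6 times at an FDR of 0.0602 to 0.0762 and, without CAC replicate 3, because the log2 fold change of 0.56 fell under the fold limit.

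The comparison of KD with CAC asks the same of tumors with less Rab27. None of the 10 genes was called by edgeR, DESeq2, or limma-voom, beside 0.00685% of the 14593 genes tested (1 gene, by edgeR). In 0 of the 10 did the groups not overlap, beside 7.29% of all genes. Timp4 and Adamts4 (2 of 10, by each of the 3 tools) had an unadjusted p under 0.05, beside 11.1% of all genes with edgeR. Timp4 measured 54.1, 135, 91.6, and 74.4 CPM in KD, below CAC except for KD replicate 2 (log2 -1.03, SE 0.38, FDR 0.378 by edgeR). Adamts4 measured 5.52, 3.13, 1.45, and 1.47 CPM (log2 -1.42, SE 0.54, FDR 0.389 by edgeR), and KD replicate 1 alone lay inside the CAC range. The median log2 fold change was -0.21 over the 10 genes and 0.00 over all genes.

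The KD mice fell into a high and a low pair that crossed the strain labels. Mmp2 measured 173 and 172 CPM in KD replicates 1 and 4 and 46.4 and 59.5 CPM in replicates 2 and 3. Timp2 measured 309 and 304 CPM in replicates 1 and 4 and 144 and 179 CPM in replicates 2 and 3. The first pair lay in or above the AM range and the second in or just below the CAC range of each gene. The fibroblast marker sum split likewise, at 3026 and 3346 CPM against 998 and 778 CPM, and the macrophage sum at 353 and 356 CPM against 75.4 and 44.8 CPM. The neutrophil sum was 417 and 330 CPM in replicates 1 and 4 against 126 and 14.5 CPM, and the sum of 6 adipocyte markers 2612 and 2607 CPM against 371 and 506 CPM. Of the neutrophil markers, Retnlg (9.87 and 12.2 against 12.9 and 1.12 CPM) and Cxcr2 (9.26 and 3.67 against 6.73 and 1.04 CPM) did not split. The part of any of these sums in the split was not tested. Mmp14 (76.9 and 46.5 against 35.4 and 17.1 CPM), Mmp9 (29.2 and 24.2 against 13.2 and 2.51 CPM), and Mmp3 (17.2 and 5.80 against 1.17 and 0.67 CPM) were also higher in replicates 1 and 4, as was Timp1 (3.66 and 3.74 against 2.43 and 0.763 CPM). Timp4 (54.1 and 74.4 against 135 and 91.6 CPM) and Adamts1 (71.8 and 73.3 against 131 and 104 CPM) ran the other way, and Timp3 and Adamts4 did not split by these pairs. The muscle fibre sum was 91287 and 112551 CPM in replicates 1 and 4, against 149914 and 143103 CPM in replicates 2 and 3. Replicates 2 and 3 are those with lymphocyte markers near 0, and replicate 3 is the library without Y-linked counts. Without KD replicate 3 the log2 fold change was -1.04 for Timp4 (FDR 0.535 by edgeR) and -1.20 for Adamts4 (FDR 0.562). In KD vs. CAC Mmp2 was at 0.31 (FDR 0.879 by edgeR) and Timp2 at 0.53 (FDR 0.527). Without the 5 libraries poor in lymphocyte markers they were at 1.22 (FDR 0.204) and 0.98 (FDR 0.240).

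Set against NOR, no gene was called in AM (0 of 10, beside 0% of 14738 genes), in KD (0 of 10, beside 0% of 14748), or between AM and KD (0 of 10, beside 0% of 14745), by edgeR, and DESeq2 and limma-voom called none of the 10 either. In AM vs. NOR, 4 of the 10 had an unadjusted p under 0.05 with edgeR, beside 9.19% of all genes: Mmp3 (log2 1.77, SE 0.59), Mmp9 (1.48, SE 0.48), Timp1 (1.05, SE 0.34), and Adamts1 (0.46, SE 0.19), each higher in AM, with FDRs of 0.518 to 0.533. DESeq2 put 4 and limma-voom 2 genes under that p. Timp1 measured 4.89, 3.36, 4.26, and 2.25 CPM in AM, and AM replicate 4 alone lay in the NOR range. Timp2 was lower in each AM mouse than in each NOR mouse, by as little as 271 against 272 CPM (1 of 10 genes without overlap, beside 5.11% of all genes; exact permutation p = 0.0286), though its log2 fold change of -0.12 (SE 0.08) had an edgeR FDR of 0.634. In KD vs. NOR, Mmp9 alone had an unadjusted p under 0.05 with edgeR (log2 1.51, SE 0.63, FDR 0.999), beside 3.54% of all genes, with 1 gene of the 10 by DESeq2 and 0 by limma-voom. In AM vs. KD no gene of the 10 reached that p by any of the 3 tools, beside 1.11% of all genes with edgeR. All 10 genes overlapped between KD and NOR (2.26% of all genes did not) and between AM and KD (0.956% did not). The AM and KD comparisons share the CAC and NOR mice, so their values stand side by side and are not independent.

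Summed per length, the 4 inhibitors stood above the 4 metalloproteinases in each mouse. The NOR mice had a TIMP sum of 283 ± 65.4 FPKM, the CAC mice 313 ± 45.1, the AM mice 251 ± 23.6, and the KD mice 274 ± 47.2 (SD, n = 4 each), and the groups overlapped. Of this sum Timp2 made up 35.6 to 52.3% in NOR, against 20.5 to 29.4% in CAC, 41.6 to 52.6% in AM, and 24.7 to 58.1% in the KD mice. Timp4 made up 4.35 to 9.25% in NOR, against 12.01 to 27.0% in CAC, 5.49 to 11.9% in AM, and 6.98 to 15.9% in the KD mice. In both shares the CAC mice did not overlap with the NOR or the AM mice, and these shares were not tested apart from the levels of Timp2 and Timp4. Timp3 was the largest part in every CAC mouse, at 51.3 to 58.1%. It was also the largest in NOR replicates 3 and 4, AM replicates 3 and 4, and KD replicates 2 to 4. Its share was 40.9 to 54.6% in NOR, 37.9 to 46.5% in AM, and 33.1 to 62.4% in KD.

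**Figure D4:**
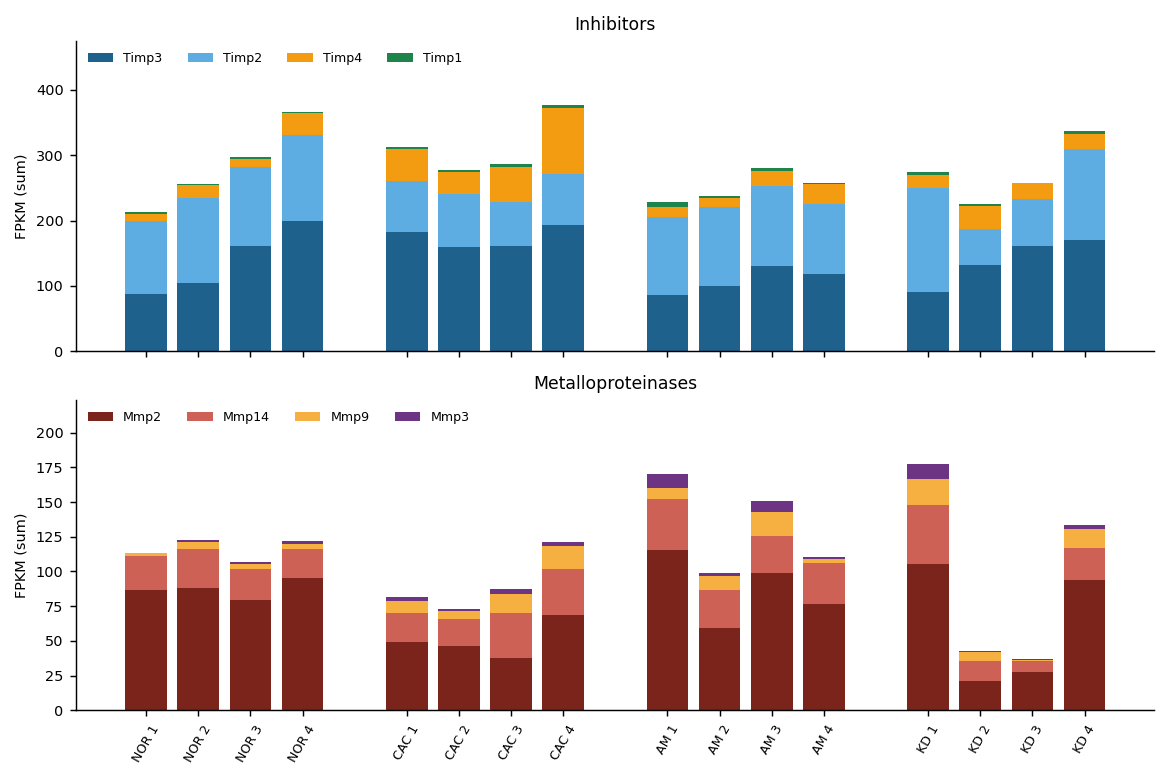
FPKM of the 4 TIMP genes (upper bars) and the 4 metalloproteinase genes (lower bars), stacked for each of the 16 mice from 0. In the CAC mice Timp4 takes 12.01 to 27.0% of the TIMP bar, against at most 9.25% in NOR, and the metalloproteinase sum is lowest in KD replicates 2 and 3, at 42.6 and 36.8 FPKM.

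The summed metalloproteinases came to 0.333 to 0.533 of the summed TIMPs in the NOR mice, against 0.261 to 0.322 for CAC, 0.417 to 0.747 for AM, and 0.143 to 0.648 for KD. The CAC ratios were thus below those of all NOR and AM mice, and KD replicates 2 and 3 were lower still, at 0.189 and 0.143. Mmp2 made up 71.8 to 78.3% of the metalloproteinase sum in NOR and 43.4 to 63.9% in CAC. For Mmp2 over Timp2, which were both lower in CAC, the FPKM ratio was 0.657 to 0.779 in NOR and 0.553 to 0.891 in CAC and overlapped. Mmp14 over Timp2 was 0.158 to 0.221 in NOR and 0.239 to 0.476 in CAC without overlap. Mmp9 over Timp1 was 0.747 to 4.05 in NOR and 1.58 to 3.70 in CAC, and Adamts1 over Timp3 was 0.0931 to 0.174 in NOR and 0.124 to 0.271 in CAC, each with overlap. These ratios of RNA are descriptions without a test and say nothing of enzyme activity.

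The labelled strains, which here also mean LLC or CT26 tumors, gave no called difference in the 10 genes over the 16 libraries (0 called by edgeR beside 0% of 15220 genes, no other tool was run). Timp3 alone had an unadjusted p under 0.05, with a log2 difference of 0.44 (BALB/c higher, SE 0.16, FDR 1 by edgeR). The interaction of strain with condition passed for 0 of the 10 in CAC vs. NOR (beside 0% of 15235 genes), in AM vs. CAC (0% of 15305), and in KD vs. CAC (0% of 15266). Without adjustment the interaction p was under 0.05 for Mmp14, Adamts4, and Timp3 in CAC vs. NOR, for Adamts1 in AM vs. CAC, and for Adamts4 in KD vs. CAC (log2 -2.80, SE 0.55, FDR 0.866 by edgeR). Over all genes it was under 0.05 for 742 of 15235, 1810 of 15305, and 850 of 15266 in these comparisons. For KD vs. CAC Adamts4 averaged 4.71 CPM in C57BL/6-labelled and 10.8 CPM in BALB/c-labelled CAC mice, and 4.33 and 1.46 CPM in KD. With 2 mice per strain and group such values rest on few animals.

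The other genes of matrix breakdown were 66 further metalloproteinases, ADAMs, ADAMTS and ADAMTS-like genes, plasminogen system genes, other inhibitors, and genes of matrix clearance or protease induction. In CAC vs. NOR 51 of them were tested, and 16 were called, 2 higher and 14 lower, beside 9.45% of all genes (4.32% higher and 5.13% lower), with a median log2 fold change of -0.44 beside 0.01 over all genes. Leaving out 1 mouse gave 8 to 15 calls (8 without NOR replicate 3, 9 without NOR replicate 2, and 10 without CAC replicate 1), and leaving out the 5 libraries poor in lymphocyte markers gave 5. The median did not change with Adamts16 at the bound given below. The 5 with the smallest FDR were all lower. Adamts12 fell from 18.7 to 22.2 CPM in NOR to 7.16 to 9.31 CPM in CAC (log2 -1.27, FDR 0.00212 by edgeR). Adamts2, the procollagen N-proteinase, fell from 45.04 to 57.7 CPM to 14.5 to 25.4 CPM (log2 -1.40, FDR 0.00301). Mrc2, the endocytic receptor that clears collagen fragments, fell from 38.2 to 45.5 CPM to 12.9 to 19.9 CPM (log2 -1.22, FDR 0.00322). Adamts5, an aggrecanase, fell from 33.5 to 36.2 CPM to 12.9 to 21.6 CPM (log2 -0.92, FDR 0.00709).

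Adamts16 had 31 to 113 counts in the NOR libraries and 0 in each CAC library, so that it was at least 17.7-fold lower in CAC against a floor of 3 counts per library (FDR 0.00563 by edgeR). By family, 6 of 15 ADAMTS genes, 3 of 11 metalloproteinases, 2 of 5 plasminogen system genes, 1 of 5 ADAMTS-like genes, 1 of 8 ADAMs, and 1 of 4 clearance or inducer genes were called lower. The 2 called higher were Adam15 (log2 0.61, FDR 0.0327 by edgeR) and Mmp8, the neutrophil collagenase (log2 4.69, SE 1.04, FDR 0.0229). Mmp8 measured 0, 0.117, 0.464, and 1.49 CPM in NOR and 14.7, 6.34, 9.21, and 24.2 CPM in CAC, a direction it shared with Mmp9.

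In AM vs. CAC 10 of the 51 were called, all higher, beside 3.66% of all genes (1.63% higher and 2.03% lower), with a median log2 fold change of 0.34 beside 0.01 over all genes. Of these, the 5 with the smallest FDR were Adamts2 (log2 1.21, FDR 0.00934 by edgeR), Adamts16 (at least 10.2-fold, FDR 0.0110), Mrc2 (0.92, FDR 0.0160), Plat, the tissue plasminogen activator (0.80, FDR 0.0192), and Mmp16 (1.99, FDR 0.0254). Adamts2 measured 41.4 to 51.6 CPM in AM, above each CAC mouse, and Plat 16.9 to 26.7 CPM in AM against 11.9 to 13.4 CPM in CAC. Mmp8, at 0.515 to 5.31 CPM in AM, lay below each CAC mouse, whereas Mmp9 overlapped. DESeq2 called Mmp8 in this comparison, and edgeR and limma-voom did not. With any 1 mouse left out 3 to 6 genes were called, with all libraries in 1 fit 3, with the replicate block 0, and without the 5 libraries poor in lymphocyte markers 0. The median log2 fold changes of the fibroblast and tendon markers ran in the direction of this list. They were -1.11 and -1.19 in CAC vs. NOR and 1.17 and 0.98 in AM vs. CAC. Not all markers did so: Dcn, Pdgfra, Thbs4, Mkx, and Scx overlapped in both comparisons. Scx measured 7.04 to 9.07 CPM in AM against 8.60 to 18.6 CPM in CAC. The part of these markers in the list was not tested. In KD vs. CAC 0 of the 51 were called by edgeR or limma-voom and 1, Adamts17, by DESeq2 (which gave 2 genes no adjusted p), and 5, 7, and 5 had an unadjusted p under 0.05 with edgeR, DESeq2, and limma-voom. Adamts2 split in KD as Mmp2 did, at 57.5 and 69.9 CPM in replicates 1 and 4 and 15.7 and 20.4 CPM in replicates 2 and 3.

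**Figure D5:**
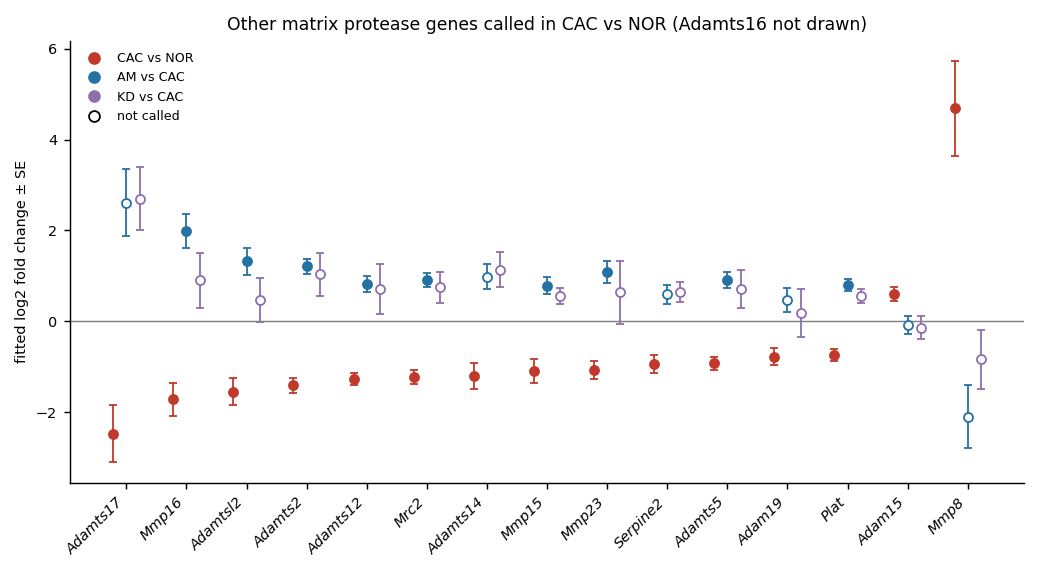
Fitted log2 fold change (vertical axis) with its SE for 15 of the 16 other matrix protease genes called in CAC vs. NOR (horizontal axis), for CAC against NOR and for AM and KD against CAC, which share the CAC mice; filled points passed the call rule and Adamts16, with 0 counts in CAC, is not drawn. Adam15 and Mmp8 lie above 0 in CAC vs. NOR and the other 13 below it.

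Over the 16 libraries and 13209 genes with a mean of at least 1 CPM, the genes whose log2 CPM ran most like Timp2 were Fndc1 (Pearson's r = 0.979), Serpinf1 (0.972), and Olfml3 (0.967). Those most like Mmp9 were Ccr1 (0.921), a chemokine receptor of myeloid cells, Chil1 (0.907), and Cd177 (0.897), a surface protein of neutrophils. Those most like Adamts1 were Mettl6 (0.896), Arid5a (0.881), and Rnf39 (0.853). Within the 10 genes, Mmp2 and Timp2 ran most alike (r = 0.865) and Timp2 and Timp4 most oppositely (r = -0.71). These are descriptions over libraries that share their groups and their mixture of cells.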

How the data were processed

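Per the labels, poly(A)-enriched libraries were sequenced on an Illumina HiSeq2500. The submitters' processing notes name fastp, Bowtie2, HISAT2, StringTie 1.3.1, and the builds mm9 and GRCm38, without their roles. The deposited table gives raw read counts, as integers, and the FPKM that the authors derived from them by 1 length per gene (in 4407 genes checked, the length behind the FPKM differed between libraries by 0.0927% or less). All sample columns were mapped by name.

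Counts were fitted over all genes on the 8 libraries of each pair of groups with edgeR 4.0.16 in R 4.3.3 (TMM, minimum count 10, minimum total count 15, glmQLFit non-robust, quasi-likelihood F test, Benjamini-Hochberg FDR), in place of NOISeq, which the study names. SEs were derived from the F statistics. For single genes an exact permutation test (two-sided, on TMM-scaled log2 CPM, prior count 2) was added. FPKM served for levels between genes, sums, and ratios. Mice were housed singly per the methods. Batches of extraction or sequencing are not given in the sources used here, and p-values measure the spread between these mice. Libraries of a group differed by a chi-square per degree of freedom of at least 69.3, so none was counted as a repeat.

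The 10 genes and all lists were chosen with earlier results of these data known. Named besides them were the 5 called genes of smallest FDR of the other list per comparison, both genes of it that were higher in CAC (chosen after their values were seen), Adamts17, the genes that hold a TIMP, the 3 genes most correlated with the member of smallest p per family, and marker sums. The alternatives were RLE scaling, total counts, other filters, strain covariate, replicate block, all libraries in 1 fit, DESeq2 1.42.0, limma-voom 3.58.1, each strain alone, no fold limit, and leaving out each mouse. A lymphocyte covariate and leaving out 5 libraries were added after seeing the data. The fit was tested on simulated data. Gene positions come from GENCODE M21, which matched 21905 table identifiers. Proteins and the promoters of Mmp2, Mmp9, and Adamts4 were not used here.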

Additional observations from a re-analysis of the deposited data

How the results depend on the processing

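Over the 10 genes and the 3 comparisons with CAC, 46 of 770 log2 values under an alternative changed sign, none of them in the 5 values that were called. In CAC vs. NOR 4 genes were called, against 2 with all libraries in 1 fit, 0 in C57BL/6-labelled mice alone, 0 in BALB/c-labelled mice alone, 1 without the 5 libraries poor in lymphocyte markers, and 1 to 3 when 1 mouse was left out. In AM vs. CAC 1 gene was called, against 2 with total-count scaling, 2 with a strain covariate, 4 with DESeq2, 0 with all libraries in 1 fit (Timp2 at log2 0.66, edgeR FDR 0.0918), 0 in each strain alone, 0 without the 5 libraries, and 0 to 1 without 1 mouse. Genes gained were Timp3 with total counts, Timp4 with the strain covariate, and Mmp2, Timp3, and Timp4 with DESeq2. Of the other matrix protease genes, 16 were called in CAC vs. NOR, against 3 and 0 in the C57BL/6-labelled and BALB/c-labelled mice alone, 5 without the 5 libraries, and 8 to 15 without 1 mouse. In AM vs. CAC 10 were called, against 4 with the strain covariate, 3 with all libraries in 1 fit, 0 in each strain alone, 6 with the lymphocyte covariate, 0 without the 5 libraries, and 3 to 6 without 1 mouse. In KD vs. CAC the 0 called by edgeR became 1 with all libraries in 1 fit and 1 with DESeq2. The cause of these changes was not tested. The settings with each strain alone or with mice left out also held fewer mice.

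The replicate numbers did not pair the mice: same-numbered mice correlated at -0.702 to 0.684, above 0.1 in 7 of 24 pairs. With the replicate number as a block, 4 genes were called in CAC vs. NOR and 0 in AM vs. CAC (Timp2 at log2 0.68, edgeR FDR 0.160), where the block also left 0 of the other matrix protease genes.

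The sign changed for these uncalled log2 values. In CAC vs. NOR Mmp14, at 0.00, was at -0.0041 with RLE, -0.0074 with a minimum of 1 CPM, -0.0048 with the strain covariate, -0.0069 with the block, -0.0040 with DESeq2, -0.0061 with limma-voom, -0.40 in C57BL/6-labelled mice, -0.057 with the lymphocyte covariate, -0.010 without the 5 libraries, and -0.12 to 0.10 without 1 mouse. Timp3 was at -0.19 in BALB/c-labelled mice and -0.064 without the 5 libraries, and Adamts4 at -0.34 in C57BL/6-labelled mice. In AM vs. CAC Mmp9 was at 0.28 in C57BL/6-labelled mice, 0.12 with the lymphocyte covariate, 0.17 without the 5 libraries, and -0.60 to 0.16 without 1 mouse. Mmp14 and Timp1 were each at -0.012 in BALB/c-labelled mice. Adamts1 was at 0.30 in C57BL/6-labelled mice, 0.063 without the 5 libraries, and -0.38 to 0.077 without 1 mouse. In KD vs. CAC Mmp3 was at -0.49 with the block, -0.52 with limma-voom, -0.64 in BALB/c-labelled mice, -0.46 with the lymphocyte covariate, and -0.86 to 0.82 without 1 mouse. Mmp9 was at 0.75 in C57BL/6-labelled mice, 0.82 without the 5 libraries, and -0.48 to 0.26 without 1 mouse. Mmp14 was at 0.40, 0.36, and -0.64 to 0.054 under the same settings, and Timp1 at 0.062, 0.32, and -0.45 to 0.081. Timp3 was at 0.13 in BALB/c-labelled mice and -0.32 to 0.0034 without 1 mouse, and Adamts1 at 0.33 in C57BL/6-labelled mice and -0.47 to 0.035 without 1 mouse. Depth was smallest for Adamts4, Mmp3, and Timp1, with as few as 15 counts for Adamts4 and 36 for Mmp3 in a library.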
